A study of Mus musculus with 12 samples.

Results

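Neurexins and neuroligins are cell adhesion proteins that meet across the synaptic cleft. The genes described here are Nrxn2 and Nrxn3, which encode neurexins, and Nlgn1, Nlgn2 and Nlgn3, which encode neuroligins. They were chosen by gene symbol, as the rows of both count tables whose Ensembl identifier maps to one of these names, and they make up 5 of the 54446 genes counted.

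Neurexins sit mainly on the axon terminal, where they help to organise the release site, and neuroligins sit on the dendrite, where they recruit receptors and scaffolds. Neuroligin 1 is best known from excitatory synapses, neuroligin 2 from inhibitory synapses, and neuroligin 3 has been placed at both. Each neurexin gene gives long and short forms from separate promoters and many splice forms, which set the ligands a neurexin can bind. The counts used here are sums per gene and do not separate these forms.

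RNA sequencing was carried out on the hippocampus and the cerebellum of 3 Syt14 knockout mice and 3 wild-type mice, and each of the 6 animals gave both tissues. This made 4 groups of 3 libraries: wild-type hippocampus, knockout hippocampus, wild-type cerebellum and knockout cerebellum. Syt14 encodes a synaptotagmin, a member of a protein family known for membrane trafficking. The labels do not state the strain, age or sex of the mice or the design of the knockout allele.

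The libraries held 24355572 to 34971359 counts, and mitochondrial genes took 3.76 to 4.52% of them. Syt14 stood at 38.1 to 38.9 CPM (counts over the total of the library as scaled by TMM factors) in wild-type hippocampus and 28.0 to 30.6 CPM in knockout hippocampus. In the cerebellum it stood at 33.3 to 38.2 CPM in wild type and 30.3 to 30.7 CPM in knockout. The genotype groups did not overlap in either tissue, but transcripts of the gene were present in every knockout library, and neither difference passed the threshold over all genes (edgeR quasi-likelihood test, log2 fold change -0.39 ± 0.06 SE, adjusted p = 0.686 in hippocampus, and -0.20 ± 0.06, adjusted p = 0.644 in cerebellum). By unadjusted p, Syt14 ranked 1 of 17693 genes in hippocampus and 245 of 17733 in cerebellum. Genotype groups did not overlap for 9.81% and 11.9% of all genes tested. In plain CPM, over the unscaled total, hippocampal neuron markers summed to 5874 to 6351 CPM in the hippocampus libraries and 423 to 527 CPM in the cerebellum libraries. Gabra6, a receptor gene of cerebellar granule cells, was at 590 to 655 CPM in the cerebellum and at no more than 0.0374 CPM in the hippocampus. Each library thus carried the markers of its labelled tissue. Choroid plexus markers summed to 1033 to 2876 CPM in 5 cerebellum libraries and to 28.6 CPM in knockout library 3, and brainstem markers summed to 20.5 and 39.8 CPM in knockout cerebellum libraries 1 and 2 against 1.24 to 5.83 CPM in the other 4.

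Sequences upstream of annotated transcript starts are shown for the member that differed most between the tissues, Nlgn1, and for the member that did not pass the test between them, Nlgn2. They were taken from RefSeq (GRCm38.p6), which had entries for 3 of the 5 members, Nlgn1, Nlgn2 and Nrxn3, with 6 starts between them. Each sequence covers the 250 bases before a start, written 5′ to 3′ on the gene's strand, with CpG dinucleotides in capitals. The Nlgn2 window is at chr11:69837785-69838034 on the minus strand and the Nlgn1 window, before an internal start, is at chr3:26153987-26154236 on the minus strand.
Nlgn2: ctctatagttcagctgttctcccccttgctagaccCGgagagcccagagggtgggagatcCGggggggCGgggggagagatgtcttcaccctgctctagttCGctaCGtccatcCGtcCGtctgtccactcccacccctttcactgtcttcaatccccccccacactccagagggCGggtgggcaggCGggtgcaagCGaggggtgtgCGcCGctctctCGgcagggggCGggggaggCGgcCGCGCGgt
Nlgn1, internal start: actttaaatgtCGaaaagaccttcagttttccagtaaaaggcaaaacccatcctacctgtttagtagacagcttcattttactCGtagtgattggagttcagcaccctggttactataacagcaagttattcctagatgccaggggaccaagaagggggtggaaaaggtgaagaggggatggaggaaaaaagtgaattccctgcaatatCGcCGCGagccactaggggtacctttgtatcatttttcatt
The Nlgn2 window held 18 CpG dinucleotides and 67.6% G or C, and 21.7% of 32851 windows of the same length had as many CpG. The Nlgn1 window held 5 CpG and 43.6% G or C, and 55.6% of windows had as many. The other Nlgn1 window, at chr3:26331910-26332159 near the 5′ end of the gene, held 9 CpG and 53.6% G or C, and 40.3% of windows had as many. Its letters are not shown because it overlaps an annotated UTR. The median over all windows was 6 CpG. Nrxn3 had 3 starts with 2, 5 and 12 CpG. The last of them, at chr12:89812233-89812482 on the plus strand, lies far inside the gene. Of 4 motifs searched on both strands, GGGCGG was in the Nlgn2 window and in 32.7% of all windows, and no other member window held it. CACGTG, TGACGTCA and TATAAA were in none of the members' windows and in 6.02%, 1.55% and 12.4% of all windows. These matches are descriptions of the sequence only.

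Between the tissues, the genes moved in different directions. In wild-type animals Nlgn1 was 3.07-fold higher and Nlgn3 1.80-fold higher in the hippocampus, whereas Nrxn2 was 1.41-fold and Nrxn3 1.20-fold higher in the cerebellum, and Nlgn2 did not pass the test. Thus 4 of the 5 members were called at an adjusted p under 0.05 in wild type, where 66.1% of the 18128 genes tested were called, 33.1% higher and 33% lower in the hippocampus. In knockout animals the same 4 members were called in the same directions, where 64.1% of 18200 genes were called, 31.6% higher and 32.5% lower. Of the 17774 genes tested in both genotypes, 58.3% were called in the same direction in both. The tissues did not overlap for these 4 members in either genotype, nor for 70.7% of all genes in wild type and 70.3% in knockout. These shares are high for all genes, so a tissue difference as such does not set the members apart. In bulk tissue, fewer cells of a type and less RNA per cell cannot be told apart. The column names carry L1 for all hippocampus and L4 for all cerebellum libraries. If this is a sequencing lane, lane and tissue cannot be told apart.

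**Figure D1:**
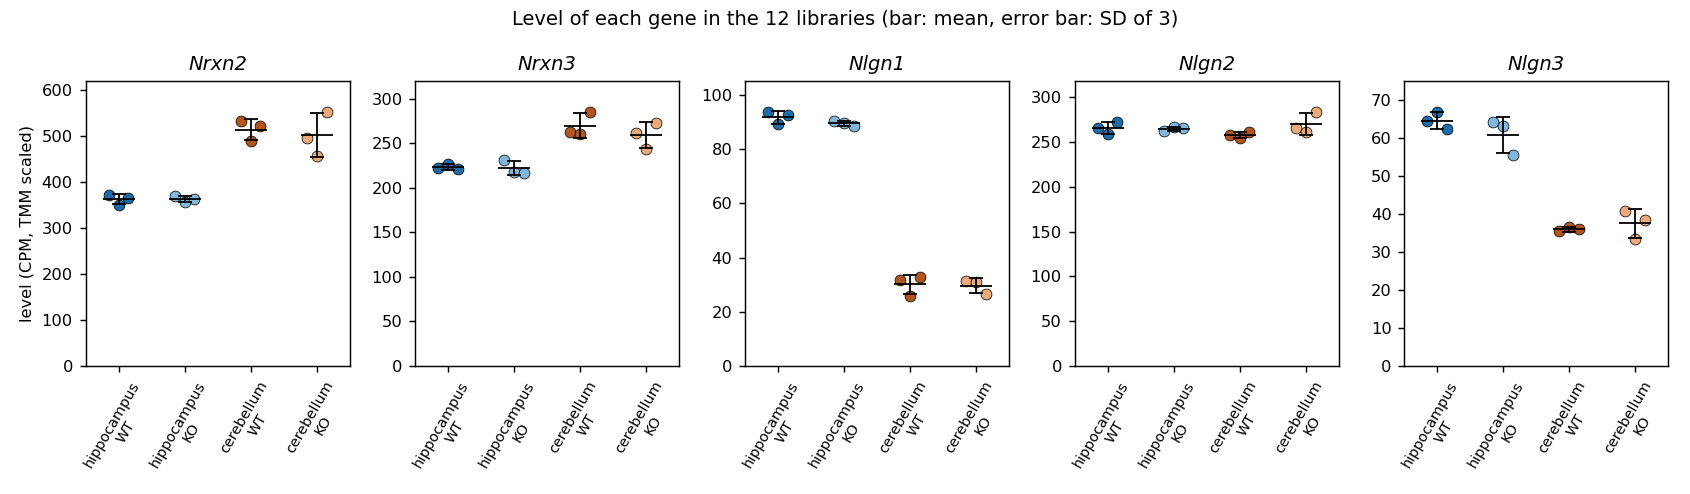
Level of each of the 5 genes in each of the 12 libraries, in CPM scaled by TMM factors, by tissue and genotype, with the group mean and SD. Nlgn1 and Nlgn3 lie higher in all hippocampus libraries, Nrxn2 and Nrxn3 in all cerebellum libraries, and the genotypes overlap for every gene.

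Nrxn2 (ENSMUSG00000033768) lies at chr19:6418731-6544169 on the plus strand of GRCm38. It had the highest CPM of the 5 genes in every library. In wild-type hippocampus libraries 1 to 3 gave 373, 351 and 366 CPM, and the knockout ones 369, 356 and 364 CPM. In wild-type cerebellum the values were 533, 489 and 521 CPM, and in knockout cerebellum 496, 457 and 554 CPM. Every cerebellum library was above every hippocampus library, and the genotypes overlapped in both tissues. The hippocampus was lower by a log2 fold change of -0.50 ± 0.05 (SE) in wild type (edgeR, adjusted p = 1.27e-06) and -0.47 ± 0.07 in knockout (adjusted p = 1.85e-04). Of the genes tested in wild type, 47.7% had a larger absolute change. Its exons share 889 bases with genes on the opposite strand, the antisense gene Gm14964 at 83 to 253 counts per library and Slc22a12 at 10 to 36 counts, against 8799 to 18165 counts of Nrxn2.

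Nrxn3 (ENSMUSG00000066392) spans chr12:88722876-90334935 on the plus strand. The hippocampus libraries gave 222, 227 and 222 CPM in wild type and 231, 218 and 217 CPM in knockout. The cerebellum libraries gave 263, 261 and 286 CPM in wild type and 262, 244 and 273 CPM in knockout. The tissues did not overlap within either genotype, though the smallest gap was narrow, between 231 and 244 CPM in knockout. The log2 fold change of hippocampus over cerebellum was -0.27 ± 0.05 in wild type (edgeR, adjusted p = 3.09e-04) and -0.23 ± 0.06 in knockout (adjusted p = 0.00490). A larger absolute change was seen in 67.4% of the genes tested in wild type.

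Nlgn1 (ENSMUSG00000063887), the neuroligin gene best known from excitatory synapses, lies at chr3:25426215-26332460 on the minus strand. Its hippocampus values were 93.9, 89.2 and 92.5 CPM in wild type and 90.4, 89.9 and 88.5 CPM in knockout. In the cerebellum they were 31.5, 25.9 and 32.8 CPM in wild type and 31.5, 31.0 and 26.4 CPM in knockout. The lowest hippocampus library was therefore well above the highest cerebellum library, and within the cerebellum 1 library of each genotype was lower than the other two. The log2 fold change between tissues was 1.62 ± 0.08 in wild type (95% interval of the fold 2.74 to 3.45, edgeR, adjusted p = 8.14e-10) and 1.59 ± 0.07 in knockout (adjusted p = 5.33e-08). Only 15.1% of the genes tested in wild type had a larger absolute change. The antisense gene A830092H15Rik shares 1229 exon bases with it and had 7 to 37 counts per library, against 795 to 2570 of Nlgn1.

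Nlgn2 (ENSMUSG00000051790), the neuroligin gene of inhibitory synapses, lies at chr11:69823122-69837784 on the minus strand and shares no exon bases with another gene. Its hippocampus values were 266, 259 and 272 CPM in wild type and 262, 266 and 265 CPM in knockout. Its cerebellum values were 258, 254 and 261.0 CPM in wild type and 265, 260.9 and 284 CPM in knockout. All 4 groups overlapped with the others of the same genotype or tissue. The log2 fold change between tissues was 0.05 ± 0.04 in wild type (95% interval -0.05 to 0.14, edgeR, adjusted p = 0.343) and -0.04 ± 0.05 in knockout (-0.15 to 0.07, adjusted p = 0.546), and 93.9% of genes had a larger absolute change in wild type. Without scaling factors the median of all genes moved from -0.02 to -0.16 in wild type and from -0.03 to -0.16 in knockout. On that scale Nlgn2 was at -0.09 (adjusted p = 0.0534) and -0.17 (adjusted p = 0.00853, called), against all genes at -0.16, and the split of all calls in wild type went from 6005 higher and 5981 lower to 4852 and 7607.

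Nlgn3 (ENSMUSG00000031302) lies at chrX:101299168-101325963 on the plus strand. In the hippocampus it was at 64.4, 66.9 and 62.3 CPM in wild type and 64.1, 63.1 and 55.4 CPM in knockout. In the cerebellum it was at 35.4, 36.7 and 35.9 CPM in wild type and 40.8, 33.4 and 38.5 CPM in knockout. The tissues did not overlap, and the knockout libraries spread more widely than the wild-type ones in both tissues. The log2 fold change between tissues was 0.85 ± 0.05 in wild type (edgeR, adjusted p = 1.41e-08) and 0.69 ± 0.08 in knockout (adjusted p = 7.11e-05), and 31.1% of genes had a larger absolute change in wild type. Gm21986 lies on the same strand and shares 3823 of the 9271 exon bases of Nlgn3. It had 11 to 33 counts per library against 895 to 1786 of Nlgn3, and the labels do not state how reads in the shared stretch were assigned, so the level of Nlgn3 is uncertain.

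The direction and call of Nrxn2, Nrxn3, Nlgn1 and Nlgn3 between the tissues held under all 13 alternatives in each genotype. Across these the wild-type log2 fold change ranged from 1.48 to 1.69 for Nlgn1, from 0.71 to 0.87 for Nlgn3, from -0.64 to -0.47 for Nrxn2 and from -0.41 to -0.23 for Nrxn3. The tissues also differ in their cells: cerebellar granule cell markers summed to 297 to 337 CPM in hippocampus and 4573 to 5280 CPM in cerebellum libraries, and Purkinje cell markers to 644 to 721 CPM and 6315 to 8048 CPM. The part of these cell types in the differences was not tested.

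Levels of different genes were compared as CPM per kilobase of annotated exon bases. On this scale wild-type hippocampus had Nlgn2 at 45.9 ± 1.15 (SD, n = 3), Nrxn2 at 26.3 ± 0.804, Nrxn3 at 17.8 ± 0.251, Nlgn3 at 6.96 ± 0.249 and Nlgn1 at 6.84 ± 0.182. Nlgn3 and Nlgn1 did not differ beyond their spread there, and every other step in the order did. In wild-type cerebellum the order was Nlgn2 at 44.6 ± 0.579, Nrxn2 at 37.2 ± 1.66, Nrxn3 at 21.4 ± 1.10, Nlgn3 at 3.88 ± 0.0683 and Nlgn1 at 2.24 ± 0.274. The first place depends on the length used, as does the order of Nlgn3 and Nlgn1 in hippocampus. With the longest protein coding transcript of each gene, Nrxn2 stood above Nlgn2, at 54.5 against 47.7 in hippocampus and 77.2 against 46.3 in cerebellum. With that length Nlgn1 stood at 7.78 and Nlgn3 at 7.56 in wild-type hippocampus.

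Within the neuroligins, the mix differed between the tissues. Nlgn2 made up 76.9% ± 0.621 (SD, n = 3) of the summed neuroligin level per kilobase in wild-type hippocampus and 87.9% ± 0.245 in wild-type cerebellum. The Nlgn1 share was 11.5% ± 0.199 in hippocampus and 4.42% ± 0.477 in cerebellum, and the Nlgn3 share 11.7% ± 0.620 and 7.66% ± 0.236. The knockout groups lay close by, with Nlgn1 shares of 11.3% ± 0.101 and 4.18% ± 0.538. Nlgn1 over Nlgn3 was 0.984 ± 0.0562 in wild-type hippocampus and 0.578 ± 0.0785 in wild-type cerebellum. Nrxn2 over Nrxn3 was 1.48 ± 0.0647 and 1.74 ± 0.0970. Both ratios depend on the length used. With the longest protein coding transcript of each gene, Nrxn2 over Nrxn3 was 1.93 in wild-type hippocampus and 2.27 in wild-type cerebellum. Nlgn1 over Nlgn3 was then 1.03 and 0.605. For all 5 ratios the tissues did not overlap in either genotype (two-sided exact permutation test, p = 0.1, the smallest that 3 against 3 can give, and 0.2 adjusted over 20 tests). The genotypes overlapped for every ratio in both tissues.

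**Figure D2:**
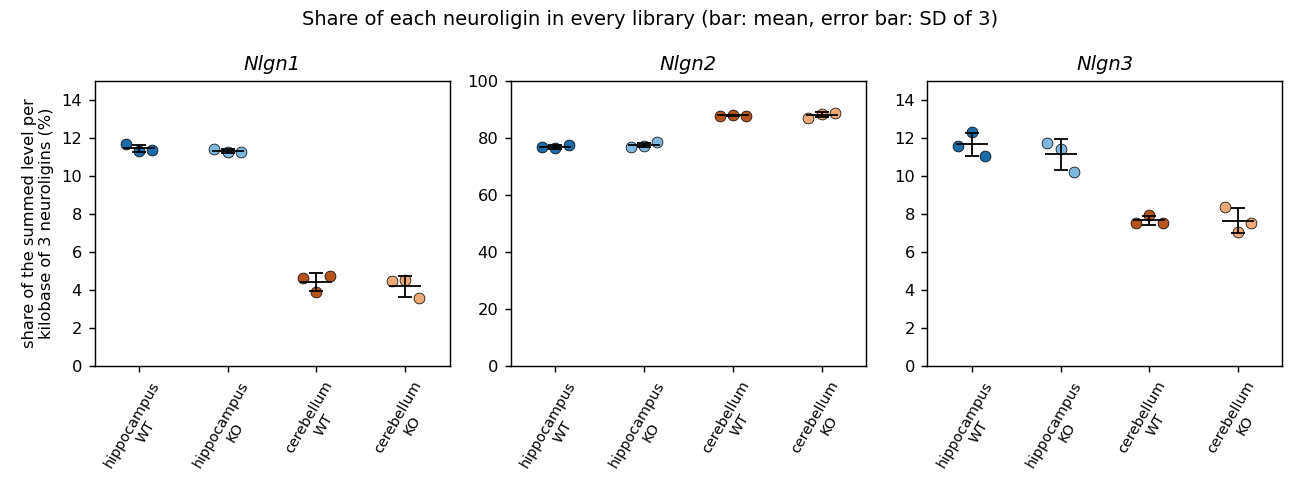
Share of each neuroligin gene in the summed neuroligin level per kilobase, in percent, for each library by tissue and genotype. The Nlgn1 share is 11.3 to 11.7% in hippocampus and 3.56 to 4.75% in cerebellum.

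The Syt14 knockout was compared with wild type in each tissue. No member passed the test in the hippocampus, where 0% of 17693 genes were called and 767 genes had an unadjusted p under 0.05. DESeq2 called 4 genes there and limma-voom 0, and neither called a member. No member passed in the cerebellum, where 0.0113% of 17733 genes were called, 2 genes, or 36 with the replicate number as a block. No member had an unadjusted p under 0.05 in either tissue, and the smallest were 0.211 and 0.165. The genotype groups overlapped for all 5 members in both tissues, while groups did not overlap for 9.81% of genes in hippocampus and 11.9% in cerebellum.

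In the hippocampus the mean levels in wild type and knockout were 364 ± 11.1 and 363 ± 6.57 CPM (SD, n = 3) for Nrxn2, and 224 ± 3.17 and 222 ± 7.55 CPM for Nrxn3. Log2 fold changes were -0.00051 ± 0.04 (SE) for Nrxn2, -0.0090 ± 0.04 for Nrxn3, -0.0054 ± 0.04 for Nlgn2, -0.03 ± 0.04 for Nlgn1 and -0.08 ± 0.06 for Nlgn3. The 95% intervals put the knockout level at 94.1 to 106% of wild type for Nrxn2, 93.2 to 106% for Nrxn3, 93.9 to 106% for Nlgn2, 91.3 to 104% for Nlgn1 and 85.7 to 104% for Nlgn3. The widest interval, that of Nlgn3, goes with 1 low library, knockout 3 at 55.4 CPM. Adjusted p-values (edgeR) were 0.995 to 0.999.

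In the cerebellum the intervals were wider. Log2 fold changes were -0.03 ± 0.07 (SE) for Nrxn2, -0.06 ± 0.05 for Nrxn3, -0.02 ± 0.10 for Nlgn1, 0.07 ± 0.04 for Nlgn2 and 0.06 ± 0.07 for Nlgn3, with adjusted p-values (edgeR) of 0.821 to 0.983. The knockout level lay at 87.9 to 108% of wild type for Nrxn2, 88.5 to 104% for Nrxn3, 84.97 to 115% for Nlgn1, 97.8 to 112% for Nlgn2 and 93.3 to 116% for Nlgn3 (95% intervals). The coefficient of variation in knockout cerebellum was 9.66% for Nrxn2, 9.47% for Nlgn1 and 10.1% for Nlgn3, above the median of 4.46% and under the 95th percentile of 11.0% for genes of at least 20 CPM there. In wild-type cerebellum it was 4.46% for Nrxn2, 12.2% for Nlgn1 and 1.76% for Nlgn3, with a median of 4.36% and a 95th percentile of 11.5%. In knockout cerebellum, library 2 was the lowest of the group for Nrxn2, Nrxn3, Nlgn2 and Nlgn3. It also had the highest brainstem marker sum, 39.8 CPM, and the highest choroid plexus marker sum of its group, 1919 CPM. Wild-type cerebellum library 2 was the lowest of its group for Nrxn2, Nrxn3, Nlgn1 and Nlgn2 and the highest for Nlgn3. Its brainstem marker sum was 1.63 CPM, and its choroid plexus marker sum was the highest of its group, 2876 CPM. The part of either marker sum in these values was not tested.

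**Figure D3:**
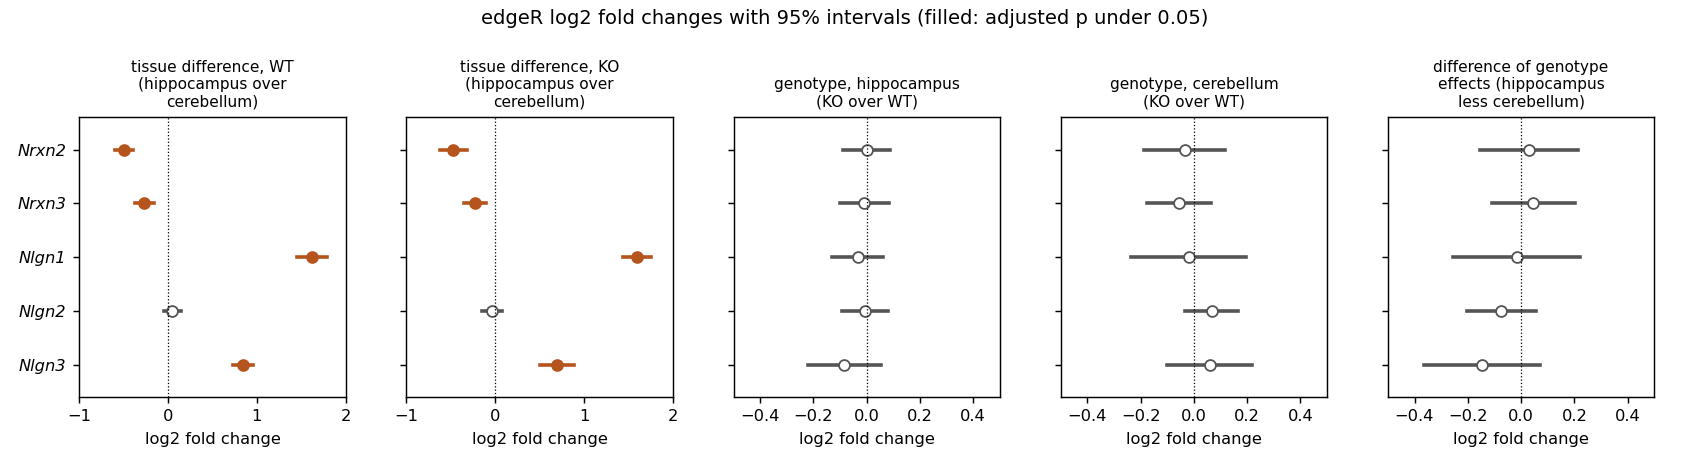
Log2 fold change with its 95% interval for each of the 5 genes, for hippocampus over cerebellum in each genotype and for knockout over wild type in each tissue. The knockout intervals all include 0, and those between tissues exclude 0 for every gene but Nlgn2.

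The difference of the knockout effect between the tissues, hippocampus minus cerebellum, was also tested itself. No member was called, where 0.0105% of 19027 genes were. The differences in log2 fold change were 0.03 ± 0.09 (SE) for Nrxn2, 0.05 ± 0.07 for Nrxn3, -0.02 ± 0.11 for Nlgn1, -0.07 ± 0.06 for Nlgn2 and -0.15 ± 0.10 for Nlgn3 (edgeR, smallest adjusted p = 0.951). The 95% interval for Nlgn3 ran from -0.36 to 0.07.

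The genes around these adhesion proteins were taken from 6 lists with 55 genes. In wild type 31 of the 55 were higher and 15 lower in the hippocampus, with a median log2 fold change of 0.30 against -0.02 over all genes tested, of which 33.1% were higher and 33% lower. In knockout 28 were higher and 16 lower, against 31.6% and 32.5% of all genes. The counts of the single lists in wild type are read against the same shares. In the comparisons of knockout with wild type, edgeR called 0 of 54 tested in each tissue. Of these, 0 in hippocampus and 4 in cerebellum had an unadjusted p under 0.05, against 4.34% and 6.77% of all genes tested. The genotypes did not overlap for 5 and 4 of the 54, against 9.81% and 11.9% of all genes, so neither count stands above the background.

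Among neurexin ligands, 11 of 16 were higher and 4 lower in wild-type hippocampus, with a median of 1.01. C1ql2, a secreted C1q-like protein that binds neurexin, was at 80.8 ± 2.84 CPM (SD, n = 3) in hippocampus and 0.653 ± 0.191 CPM in cerebellum, a log2 fold change of 6.996. Cbln1, the secreted cerebellin that links neurexin to a glutamate receptor on Purkinje cells, had the opposite pattern, with 8.48 ± 1.68 and 732 ± 35.1 CPM (log2 fold change -6.43). Lrrtm1, a postsynaptic ligand of excitatory synapses, was at 104 ± 4.39 and 6.48 ± 0.714 CPM (4.01), and Cbln2, another cerebellin, at 12.3 ± 0.503 and 1.41 ± 1.10 CPM (3.21). Between the knockout tissues the log2 fold change of Cbln2 was 1.37 ± 0.59 (SE, edgeR, adjusted p = 0.0663). It was 1.74 with the animal as a block (adjusted p = 0.0419) and 2.75 without knockout cerebellum library 1 (adjusted p = 5.43e-05).

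For the presynaptic partners inside the cell, 4 of 7 genes were higher and 1 lower in hippocampus, with a median of 0.30. Lin7a and Lin7b, which encode related scaffold proteins of the Cask complex, differed in opposite directions. Lin7a was at 23.9 ± 1.66 CPM in hippocampus and 121 ± 7.09 CPM in cerebellum, and Lin7b at 33.6 ± 0.611 and 7.82 ± 0.999 CPM. Apba1 (log2 fold change 0.33) and Sdcbp (0.32), which encode PDZ scaffolds, were higher in hippocampus by less.

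Of the 10 genes listed as postsynaptic partners of neuroligins, 8 were higher in hippocampus and 1 lower, with a median of 0.91. Dlg4, which encodes the excitatory scaffold PSD-95, was at 792 ± 20.5 and 371 ± 9.95 CPM (log2 fold change 1.10), and its relative Dlg3 rose by 1.36. Mdga1 (1.92) and Mdga2 (1.06), which encode proteins that block neuroligin from binding neurexin, were higher too. Gphn, which encodes the inhibitory scaffold gephyrin, did not pass the test, at 0.03 ± 0.05 (SE, adjusted p = 0.587). It was named after its values were seen, as was Dlg1, the gene that was lower (-0.45).

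Among 12 neuronal splicing regulators, 5 were higher and 5 lower, with a median of -0.01. Khdrbs3, which encodes a regulator of neurexin splicing, was at 142 ± 3.22 CPM in hippocampus and 12.5 ± 0.516 CPM in cerebellum (log2 fold change 3.51). Nova2 (1.08) and Rbfox1 (0.68) were higher and Nova1 (-0.89) was lower. Of 4 sheddases, Adam10, a protease that cleaves adhesion proteins at the cell surface, was lower in hippocampus (-0.23). The median change of the sheddases was -0.12.

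Of 6 transmitter genes, 2 were higher and 3 lower in hippocampus, with a median of -0.24. Slc17a7, the vesicular glutamate transporter gene, was at 1554 ± 31.9 and 545 ± 22.8 CPM (log2 fold change 1.52). Slc32a1, the vesicular transporter gene of inhibitory neurons, had 49.0 ± 2.41 and 98.8 ± 4.31 CPM (-1.01), and Gad1, which encodes a GABA-synthesising enzyme, fell by 0.61 on the log2 scale. Gad2, which encodes the other such enzyme and was named after its values were seen, went the other way, with 187.6 to 196.01 CPM in hippocampus and 156.1 to 187.5 CPM in cerebellum (0.19 ± 0.06 SE, edgeR, adjusted p = 0.0171). The call of Gad2 was lost without scaling factors (0.05), without wild-type hippocampus library 1 (0.18) or 3 (0.18) and without wild-type cerebellum library 1 (0.17) or 2 (0.12). Slc6a5, the glycine transporter gene of glycinergic neurons, was at 53.3 ± 4.001 CPM in cerebellum and 0.0393 ± 0.0393 CPM in hippocampus, under the 0.109 to 0.112 CPM that 3 counts make in those libraries.

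**Figure D4:**
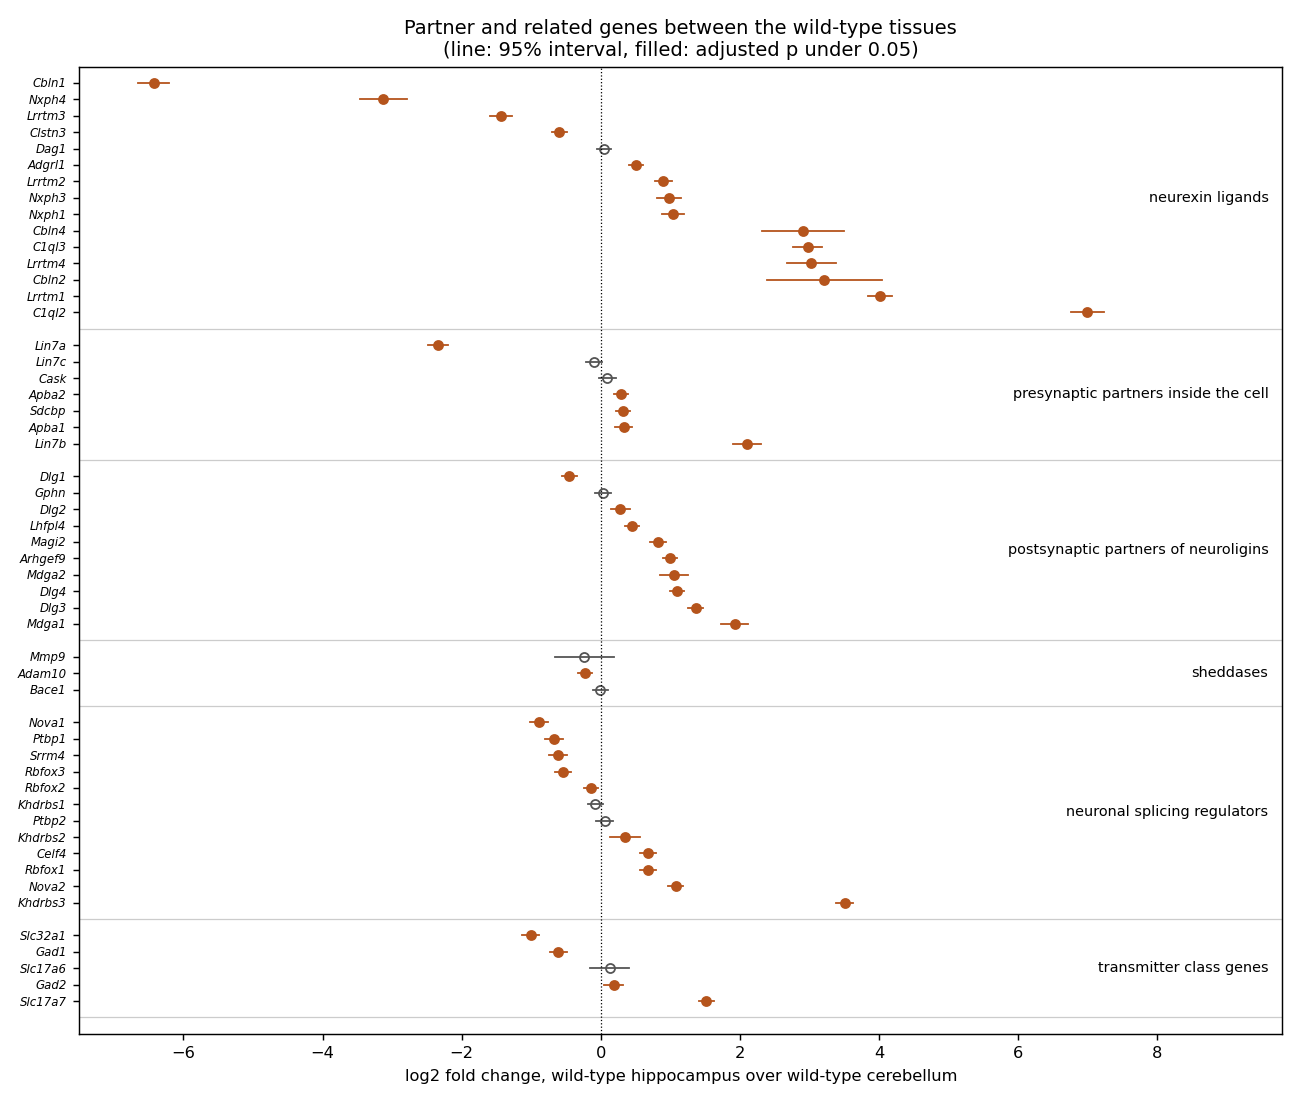
Log2 fold change of wild-type hippocampus over wild-type cerebellum, with 95% intervals, for partner and related genes grouped by list, with filled points for genes past the threshold. Nxph2 and Slc6a5, whose counts were under 3 in every wild-type library of 1 tissue, are not drawn, and C1ql2 and Cbln1 lie at the ends of the scale.

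Between knockout and wild type, the partner genes with the smallest unadjusted p in each list also missed the threshold over all genes. In the hippocampus, log2 fold changes were -0.26 ± 0.12 (SE) for Cbln2, -0.11 ± 0.06 for Nxph1, 0.15 ± 0.07 for Lin7b, -0.07 ± 0.05 for Cask, 0.13 ± 0.09 for Mdga1 and -0.07 ± 0.04 for Lhfpl4. Those of Mmp9, Khdrbs3, Rbfox3, Gad1 and Gad2 lay between -0.35 and 0.06. The smallest adjusted p of the 54 genes there was 0.995 (edgeR).

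In the cerebellum the same rule gave Lin7a at -0.15 ± 0.05 (SE), Dlg1 at -0.10 ± 0.04, Khdrbs3 at 0.24 ± 0.10, Nxph3 at -0.19 ± 0.09, Apba2 at -0.11 ± 0.05, Mdga2 at 0.20 ± 0.11 and Rbfox3 at -0.13 ± 0.07. Mmp9 and Slc6a5 lay between -0.12 and 0.13. Cbln2 was at 1.55 ± 0.79 and Slc17a6, a vesicular glutamate transporter gene, at 0.64 ± 0.29. Both values rest on knockout library 1, and without it they were 0.16 and 0.12. The smallest adjusted p of the 54 genes was 0.682 (edgeR).

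Genes whose pattern over the 12 libraries lay nearest to each member were named by the root mean square difference of centred log2 CPM, among 12797 protein coding genes. For Nrxn2 they were Dip2b (0.0344), Zfp68 (0.0491) and St3gal2 (0.0495), and for Nrxn3 Cnot1 (0.0340), Igf1r (0.0392) and Phc3 (0.0408). For Nlgn1 they were Il1rap (0.0627), Slc7a4 (0.0643) and Ptprn2 (0.0743), for Nlgn2 Zmat3 (0.0249), Ganab (0.0326) and Senp2 (0.0327), and for Nlgn3 Map1s (0.0573), Rgmb (0.0651) and Lrrtm2 (0.0657). Likeness of this kind was common for genes that change little. Within a difference of 0.1 lay 13.9% of genes for Nlgn2, 9.38% for Nrxn3 and 4.08% for Nrxn2, against 0.922% for Nlgn3 and 0.109% for Nlgn1. Between members the difference was 0.129 for Nrxn2 with Nrxn3 and 0.442 for Nlgn1 with Nlgn3, and 1.05 for Nrxn2 with Nlgn1.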

How the data were processed

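RNA from hippocampus and cerebellum of the same 6 mice was sequenced after poly(A) selection and strand-specific (dUTP) preparation, per the labels' protocols. The authors deposited whole-number counts for each gene, unscaled, in a table for each tissue. Trimmomatic 0.39, STAR 2.7.10, featureCounts 2.0.3 and the builds mm10 and GRCm38 are named, per the submitters' processing notes. The labels state neither the strand setting nor the annotation release. Symbols, positions and exon lengths came from GENCODE M21, which matched 54409 of 54446 identifiers.

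Samples were grouped by labelled tissue and genotype, and replicates are separate animals. Tests used edgeR 4.0.16 in R 4.3.3: filterByExpr (minimum count 10, total 15), TMM factors and the quasi-likelihood test, with Benjamini-Hochberg adjustment over all genes tested and calls under 0.05. Each tissue was fitted alone for the genotype, all 12 libraries for the difference, and 6 libraries for each tissue comparison. Levels are CPM with TMM factors, cell type markers are plain CPM, errors are SD over 3 libraries or SE of the fit. A count of 3 equals 0.0858 to 0.123 CPM; that floor covers counting error only. The fits were tested on simulated data. Ratios used exact permutation tests (scipy 1.17.1).

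Deviations of same-numbered animals of the 2 genotypes correlated at 0.153, 0.256 and 0.344 in the cerebellum and at -0.015, 0.016 and 0.134 in the hippocampus. These are different mice, and no such correlation is given here for differently numbered animals. The replicate block used the numbers in both tissues. The tissues are paired by animal, from the labels, with correlations of 0.0423 to 0.156. A pairing of the genotypes by number has only these correlations of the same data behind it, and the labels give none. The main fits used no pairing, and only the replicate block, an alternative, did.

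Alternatives were RLE factors, DESeq2 1.42.0, limma-voom (limma 3.58.1), no or a stricter filter, a replicate block, all libraries in 1 fit, and leaving out each library. No scaling factors and another gene length were added after seeing the data. The members and gene lists were chosen with earlier results of these data known. The text names the members and Syt14, 3 genes most alike per member, 2 genes per list by smallest p for each knockout comparison, and up to 4 per list by largest fold among called genes between wild-type tissues. Values of 1 gene that this rule names are not reported here.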

Additional observations from a re-analysis of the deposited data

How the results depend on the processing

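The number of members called, 4 in each tissue comparison and 0 in each knockout comparison and in their difference, held under every alternative run, except that 5 were called between knockout tissues without scaling factors. Leaving out 1 library gave the same counts. Of the smaller values, 1095 kept direction and side of the threshold and 25 changed sign. Another 11 went past the threshold, 8 lost their call, and 28 ratios or levels moved with another gene length.

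Over all genes, the hippocampus count of 0 went to 77 with no filter, 4 with DESeq2, 2 with the replicate block and 0 to 2 without 1 library (2 without knockout library 3). The cerebellum count of 2 went to 417 with no filter, 38 with DESeq2, 36 with the replicate block, 4 in a fit of all 12 libraries, and 2 to 33 without 1 library (33 without knockout library 3, 4 without wild-type library 3). The difference count of 2 went to 275 with no filter, 11 with DESeq2 and 2 to 44 without 1 library (44 without cerebellum knockout library 3, 4 without hippocampus wild-type library 1). The cause was not tested. The replicate block, which pairs same-numbered samples of the genotypes in each tissue and the tissues of an animal, changed no call of a member. Syt14 in hippocampus passed the threshold with DESeq2 (adjusted p = 0.0196) and with no filter (3.22e-04), and Cbln2 and Slc17a6 in cerebellum passed with no filter.

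Signs that turned belonged to values not called in the main fit, most of them near 0. Without 1 library, the hippocampus log2 fold changes ranged from -0.024 to 0.016 for Nrxn2, -0.039 to 0.0059 for Nrxn3, -0.023 to 0.010 for Nlgn2 and -0.038 to 0.033 for Gad2, the cerebellum ones from -0.11 to 0.026 for Nrxn2, -0.12 to 0.060 for Nlgn1 and -0.0036 to 0.13 for Nlgn3, and the differences from -0.034 to 0.10 for Nrxn2 and -0.097 to 0.083 for Nlgn1. Nlgn2 between knockout tissues ranged from -0.060 to 0.0076, and Gphn between wild-type tissues from -0.015 to 0.063. Without scaling factors, Nrxn2 in hippocampus was 0.0032, and between wild-type tissues Nlgn2 was -0.092, Syt14 -0.0024 and Gphn -0.10. The main value of Syt14 there was 0.14 ± 0.06 (SE), not called, and it was called at 0.20 without wild-type cerebellum library 3. The 3 animals per group limit the precision. Counts per gene do not show splice forms.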

Other observations

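Knockout cerebellum library 1 stood above the other 5 cerebellum libraries in Nrgn, Cbln2 and Slc17a6. Nrgn, a marker of forebrain neurons, was at 49.4 CPM (plain, with no scaling factors) in it and at 2.52 to 3.90 CPM in the other 5. With TMM factors, as for the members, Cbln2 was at 8.98 CPM against 0.269 to 2.45 CPM, and Slc17a6 at 72.0 CPM against 24.9 to 37.5 CPM. Its members lay within the range of the other cerebellum libraries except Nlgn3, at 40.8 CPM, the highest of the 6. The part of this library's make-up in that value was not tested.

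Cbln4, a cerebellin gene, was at 37.3 CPM with TMM factors in knockout hippocampus library 3 and at 10.6 to 21.6 CPM in the other 5 hippocampus libraries. The same library had the lowest Nlgn3 of the hippocampus, at 55.4 CPM.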
